A study of Mus musculus with 24 samples.

Results

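Notch signalling passes between touching cells. A ligand such as Jag1 or Jag2 on 1 cell binds a Notch receptor on the next, the receptor is cut, and its freed intracellular part joins the DNA-binding protein Rbpj in the nucleus. There it raises transcription of the Hes and Hey repressor genes. In arteries Notch3 is the receptor best known for smooth muscle, Jag1 presents the signal from endothelium and from neighbouring muscle cells, and Heyl and Hey2 are targets read in muscle and arterial endothelium.

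The results below describe 9 genes of this pathway, chosen by symbol from the authors' comparison tables: the receptors Notch1, Notch2 and Notch3, the ligands Jag1 and Jag2, and the targets Heyl, Hey1, Hey2 and Hes1. They are 9 of the 37606 genes in the count table, each symbol had a single identifier, and all 9 passed the filter on low counts in every comparison. The libraries came from homogenates of aorta from wild-type (WT) mice given angiotensin II (Ang II), the pressor peptide of the renin-angiotensin system, or its vehicle (sham) by an osmotic minipump placed under the skin for 2 weeks. Aortas were collected 2, 4 or 6 months afterwards, which gives 6 groups of 4 libraries: sham and Ang II at each time. All groups share the wild-type genotype and the pump; their strain, sex and age are not stated in the labels. No label states that the replicates of a group are different mice, and the p-values therefore speak of the spread among the libraries, part of which may be technical.

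Libraries held 19163673 to 58676098 counts. Markers of both arterial layers were found in all 24: Acta2 and Myh11 of smooth muscle at 113 to 3269 and 58.6 to 1214 CPM (counts per 1000000 counts of a library, with TMM scaling over all 24 libraries), and Pecam1 and Cdh5 of endothelium at 126 to 267 and 103 to 210 CPM. Mitochondrial and ribosomal RNA genes took 32.08% to 66.51% of counts in the 6-month libraries against 7.91% to 16.49% in those of 2 and 4 months, and the former also held RNA without a poly(A) tail, as given with the comparison of those times. Tissue around the aorta was also present in unequal amounts: the summed level of 14 airway epithelium genes was 9364 CPM in sham replicate 3 at 2 months and 182 to 2568 CPM in the other 7 libraries of that time, and the sum of 9 skeletal muscle genes ran from 50.7 to 6460 CPM over those 8. In homogenates, fewer cells of a type and less RNA per cell cannot be told apart.

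The upstream sequence of Hey2 is shown because Hey2 gave the largest difference after Ang II and because, of the 6 members with an entry in the RefSeq promoter table (Notch1, Notch2, Notch3, Jag1, Jag2 and Hey2), it was the only one to hold a motif that was searched. The stretch is chr10:30842884-30843033 on the minus strand of GRCm38.p6, from 250 to 101 bases before the RefSeq start site, written 5′ to 3′ with the match in capitals.
Hey2: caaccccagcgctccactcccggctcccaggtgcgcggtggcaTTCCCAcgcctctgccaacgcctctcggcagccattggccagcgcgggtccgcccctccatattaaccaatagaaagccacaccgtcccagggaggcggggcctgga
The capitals are the core of the Rbpj motif, TGGGAA, as it reads on the opposite strand, from -207 to -202. The longer form GTGGGAA contains that core and is met here too, from -207 to -201. The 250 bases before each start were searched on both strands. Of 32851 promoters of that length, 21.6% hold the core and 5.4% the longer form. Also searched, and found in none of the 6, were the E-box CACGTG (in 6.0% of all promoters), the CArG box of serum response factor (1.5%) and the TATA box as TATAAA (12.4%). A match of this kind is a description of the letters and not evidence of a site in use.

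Levels were compared between genes per kilobase of exon. In sham aortas at 2 months Hes1 stood at 11.7 ± 3.20 CPM per kilobase (SD, n = 4), Heyl at 10.1 ± 2.93 and Notch3 at 8.19 ± 1.29, and these neighbours overlapped. Jag1 (5.38 ± 0.162), Jag2 (5.26 ± 1.21) and Notch2 (4.17 ± 0.504) formed the middle of the order. Hey2 (2.95 ± 0.616), Notch1 (2.23 ± 0.479) and Hey1 (1.93 ± 0.155) were the least abundant per kilobase. Gaps without overlap lay below Notch3 and below Notch2. Notch3 was the most abundant receptor per kilobase at 2 and 4 months in sham and Ang II aortas, with group means of 5.60 to 8.19 CPM per kilobase. In the 6-month libraries Notch2 led the order, at 19.8 ± 2.86 in sham and 15.97 ± 1.48 in Ang II.

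Across the 6 groups the members showed several patterns. Heyl was highest in sham at 2 months (33.2 to 67.1 CPM, mean 51.6), followed after a gap by Ang II at 2 months (26.0 ± 1.09 CPM; SD, n = 4) and then by the 4- and 6-month groups at 15.3 to 22.6, neighbours of which overlapped. Hey2 too was highest in sham at 2 months (13.5 ± 2.83 CPM), but Ang II at 4 months came next (9.57 ± 2.53) and every neighbour in its order overlapped. Hey1 stayed between group means of 3.98 and 6.60 CPM and Jag2 between 26.1 and 36.6 CPM. Notch1, Notch2 and Jag1 had both 6-month groups on top and no overlap between these and the rest, with Notch1 at 110 ± 18.8 CPM in sham and 92.7 ± 14.5 in Ang II at 6 months and at 29.0 to 36.1 elsewhere. Hes1 ran the other way, at 12.0 ± 4.58 and 14.5 ± 3.20 CPM at 6 months and 21.2 to 28.4 before.

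**Figure D1:**
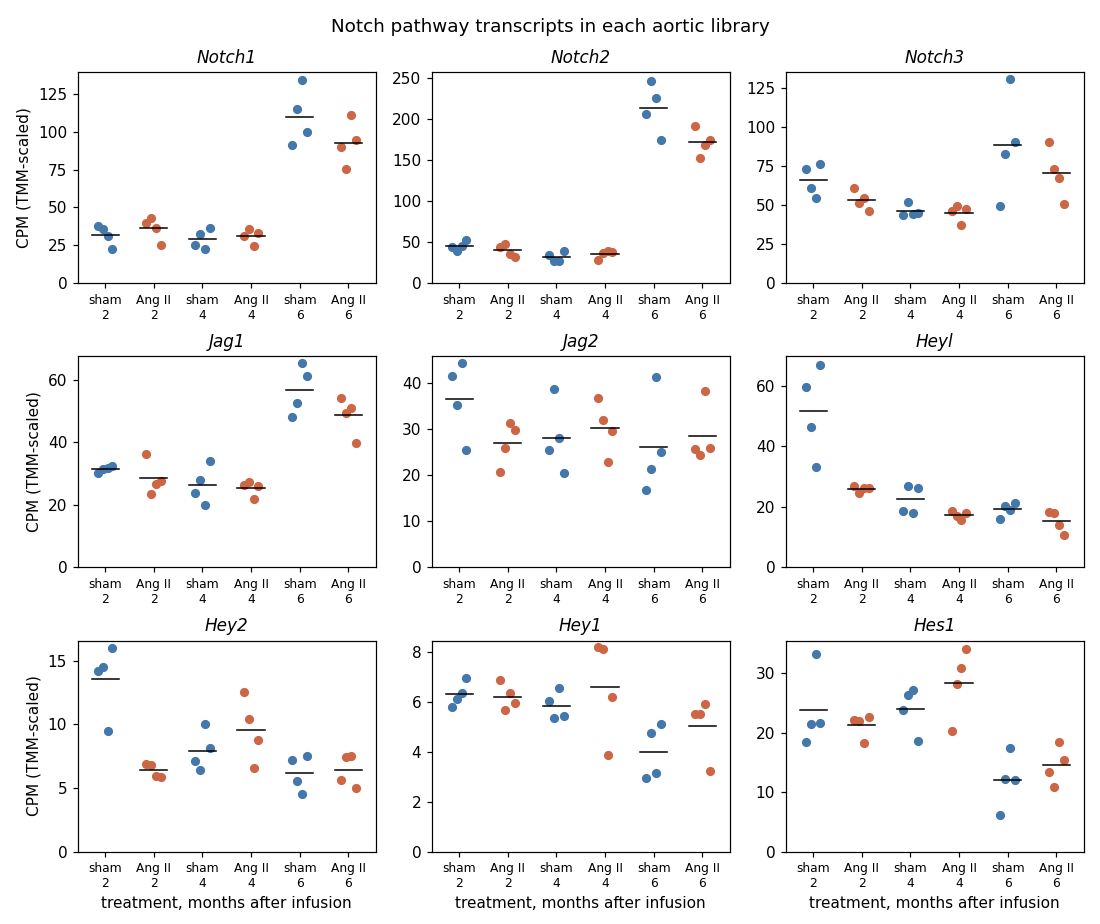
Level of each of the 9 genes in all 24 libraries (points, CPM scaled by TMM over the 24 libraries) by treatment and months after infusion, with the group mean as a line; blue is sham and orange is Ang II. The 4 sham libraries at 2 months stand highest for Heyl, at 33.2 to 67.1 CPM, and the 6-month libraries stand apart for Notch1, Notch2 and Jag1.

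The comparison of Ang II with sham at 2 months asks what differed at the earliest harvest after the infusion. The targets Heyl and Hey2 were lower in Ang II aortas, to about the same degree, while no receptor or ligand passed the test and neither did Hey1 or Hes1. These 2 of 9 members stand beside 1.44% of 16421 genes called lower and 1.81% called in either direction. The members were chosen with earlier results of these data known, so these shares do not show an excess among them.

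Heyl, a repressor of the Hey family that is a target of Notch3 in vascular muscle (chromosome 4, 123233556 to 123249875, plus strand, build mm10), had 59.7, 46.4, 33.2 and 67.1 CPM in the 4 sham libraries. In Ang II libraries it had 27.0, 24.5, 26.4 and 26.1 CPM. The groups did not overlap, and the Ang II values lay within a narrow band below the lowest sham library. The log2 fold change was -0.96 (SE 0.190, edgeR adjusted p = 0.0444), a level 0.514 times that of sham. The sham group at 2 months also lay above each of the 20 other libraries of the series, whose highest value was 27.0 CPM. Of the genes tested 0.706% show that pattern, and Heyl was the only member that did. The muscle markers Acta2 and Myh11 showed it too. Their lowest values in that group were 1267 and 721 CPM, and their highest elsewhere 1042 and 519 CPM.

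Hey2, a related repressor needed in the development of heart and arteries (chromosome 10, 30832359 to 30842801, minus strand), had 14.2, 14.5, 9.46 and 15.99 CPM in sham and 6.90, 6.80, 5.96 and 5.82 CPM in Ang II libraries. These groups did not overlap either; the lowest sham library was replicate 3, the one with most airway transcripts. The log2 fold change was -1.06 (SE 0.179, edgeR adjusted p = 0.0241). Among all genes, 5.51% had all Ang II libraries below all sham libraries, and Heyl and Hey2 were the 2 members with groups that did not overlap. In the authors' deposited table the log2 fold changes were -0.973 for Heyl and -1.067 for Hey2, with adjusted p of 2.43e-04 and 4.85e-06.

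Both calls were lost in most fits that left out 1 library. Leaving out 1 library at a time kept the differences between -1.12 and -0.81 for Heyl and between -1.20 and -0.97 for Hey2, but the Heyl call held only without sham replicate 3 and the Hey2 call only without sham replicate 3 or Ang II replicate 1. EdgeR adjusted p over these fits ran from 0.00784 to 0.159 and from 0.00817 to 0.0993. Without the 3 libraries above 1000 CPM of airway transcripts the log2 fold changes were -1.15 (edgeR adjusted p = 0.0552) and -1.35 (0.0324). Without the 4 libraries above 1000 CPM of skeletal muscle transcripts, which leaves 1 Ang II library that is assumed to vary like the others, they were -0.94 (0.953) and -0.90 (0.920).

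Markers of smooth muscle moved with both genes. The summed level of 20 contractile genes was 5538 to 8425 CPM in sham and 1918 to 3427 CPM in Ang II libraries at 2 months, and 12 of the 20 were called lower, with a median log2 fold change of -1.55 against 0.0090 for all genes. Acta2 changed by -2.51 and Myh11 by -2.20 on that scale (edgeR adjusted p = 0.0251 and 0.0232). The list holds Des, Tpm1, Tpm2 and Ldb3, which skeletal muscle also makes, so that its sum is not smooth muscle alone: Ang II replicate 3 had the highest sum of its group with the lowest Acta2 (225 CPM) and Myh11 (124 CPM), and 6460 CPM of skeletal muscle transcripts. Of 7 pericyte genes 2 were called lower, and their sum was 948 to 1525 CPM in sham and 691 to 811 CPM in Ang II. Of 14 endothelial genes none was called lower and 1 higher, the tight junction gene Cldn5 (1.40, edgeR adjusted p = 0.00820; named after its value was seen), while 8 estimates lay below 0. Their sum overlapped between the groups, at 1188 to 1546 and 1093 to 1378 CPM, and none of the contractile, pericyte or endothelial markers was at 0 in any library.

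Set against muscle transcripts, the mean of neither target was lower in Ang II at 2 months. Per 1000 CPM of Myh11, the smooth muscle myosin gene, Heyl stood at 46.0 to 66.0 CPM in sham and 75.3 to 213 in Ang II. Hey2 stood at 11.7 to 15.9 and 19.2 to 48.2, and in both cases the groups did not overlap, with Ang II higher. Myh11 itself was lower in Ang II, so a gene that fell less than Myh11 stands higher in this ratio. The size of the difference depended on the gene or list chosen. Per 1000 CPM of the contractile sum, Heyl stood at 8.25, 8.07, 5.99 and 7.97 CPM in sham and at 10.4, 11.6, 7.70 and 13.6 in Ang II, and Hey2 at 2.02 ± 0.352 and 2.66 ± 0.658, with overlap for both genes. Against the endothelial sum the order was the reverse: Heyl was at 26.9 to 56.5 CPM per 1000 CPM in sham and 18.9 to 22.4 in Ang II, and Hey2 at 7.66 to 13.5 and 4.22 to 6.22. These ratios carry no test, and the part of cell makeup in the Heyl and Hey2 differences was not tested.

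**Figure D2:**
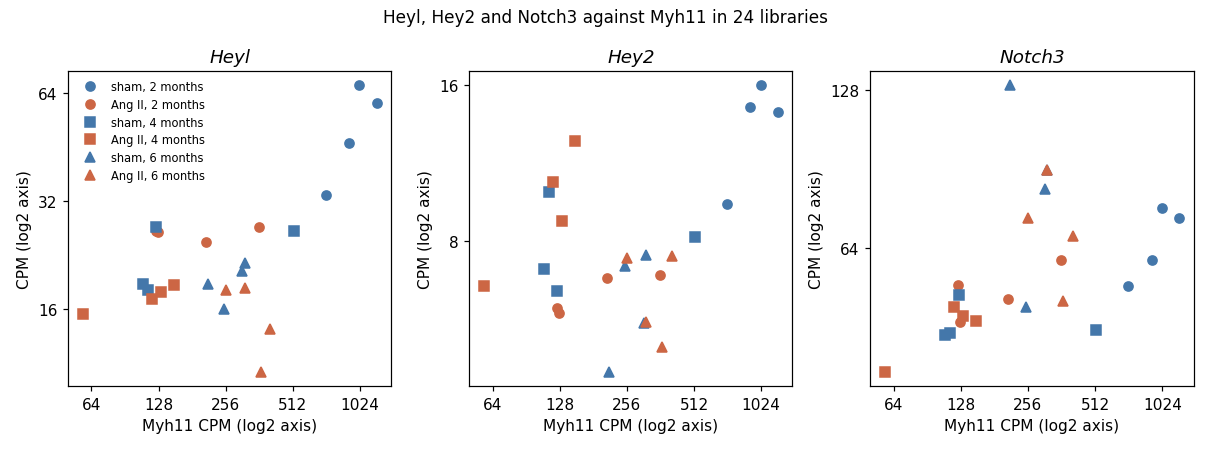
Levels of Heyl, Hey2 and Notch3 (CPM) against Myh11 (CPM) in each of 24 libraries, on log2 axes; colour gives treatment and shape gives months after infusion. Sham libraries at 2 months lie at the upper right for Heyl, with Myh11 at 721 to 1214 CPM, and the highest Notch3 value, 131 CPM, comes from a sham library at 6 months.

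Notch3 per 1000 CPM of Myh11 was 60.2 to 75.4 in sham and 169 to 442 in Ang II at 2 months, with no overlap. The mean of every member was higher in Ang II by this ratio, since Myh11 fell more than any of them. Notch1 had means of 33.8 in sham and 203 in Ang II, and Hes1 of 26.6 and 123. At 6 months Heyl was 18.3, 18.0, 14.1 and 10.7 CPM in Ang II against 15.96, 20.4, 18.8 and 21.4 CPM in sham. Myh11 overlapped between these groups, at 257 to 406 and 213 to 313 CPM, and so did Heyl per 1000 CPM of Myh11, at 29.2 to 70.0 and 63.6 to 88.6. Skeletal muscle transcripts summed to 612 to 8956 CPM in Ang II and 47.1 to 635 CPM in sham at 6 months. The 2 Ang II libraries with the lowest Heyl, replicates 3 and 4, had the 2 highest skeletal muscle sums, 8956 and 7681 CPM. Replicate 4 also had 66.51% of its counts in mitochondrial and ribosomal RNA genes. The part of either in the Heyl values was not tested.

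The receptors differed less. Notch3 (chromosome 17, 32120820 to 32166880, minus strand) had 73.1, 60.8, 54.4 and 76.6 CPM in sham and 60.8, 51.2, 54.6 and 46.4 CPM in Ang II at 2 months. The ranges overlapped, with 2 Ang II libraries below the lowest sham library, and the log2 fold change of -0.29 (SE 0.132, edgeR adjusted p = 0.496) did not pass. Notch1, the receptor of endothelium and of lymphocytes, gave 0.22 (SE 0.212) and Notch2, which smooth muscle also makes, gave -0.15 (SE 0.160). Their 95% intervals, -0.20 to 0.63 and -0.46 to 0.17, leave room for differences in either direction.

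Among ligands, Jag2 had 41.5, 35.2, 44.5 and 25.4 CPM in sham and 20.8, 25.9, 31.4 and 29.8 CPM in Ang II at 2 months, with overlap through sham replicate 4. Its log2 fold change was -0.42 (SE 0.188, edgeR adjusted p = 0.475). Jag1 was close to constant in sham, at 30.1 to 32.3 CPM, and 3 of 4 Ang II libraries lay below that range while replicate 1 lay above it at 36.1 CPM. Hey1 (0.0037, SE 0.137) and Hes1 (-0.14, SE 0.186), the other targets, had overlapping groups. Over the 9 members the median log2 fold change was -0.15.

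**Figure D3:**
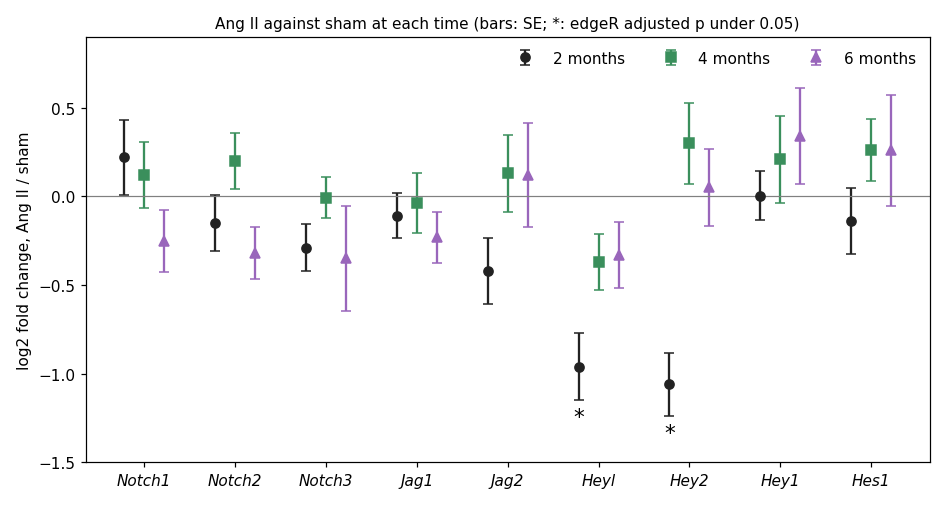
Log2 fold change of Ang II over sham (points; bars are SE) for the 9 genes at 2, 4 and 6 months, 4 libraries per group; asterisks mark edgeR adjusted p under 0.05. Only Heyl (-0.96) and Hey2 (-1.06) at 2 months carry one, and Hey2 lies above 0 at 4 months (0.30).

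At 4 months no member was called, against 0.707% of 16127 genes. Heyl had 18.7, 27.0, 18.1 and 26.4 CPM in sham and 18.6, 17.0, 15.5 and 17.8 CPM in Ang II, a log2 fold change of -0.37 (SE 0.159, edgeR adjusted p = 0.312). Sham replicates 2 and 4 were high, the other sham libraries lay within or close to the Ang II range, and Heyl was the only member with an unadjusted p under 0.05 (15.5% of genes had one). Replicate 4 had the most Myh11 of the sham group, 519 CPM, whereas replicate 2 had 125 CPM, close to the 109 and 115 CPM of the others, and 9776 CPM of skeletal muscle transcripts. Hey2 had 7.09, 6.41, 9.98 and 8.16 CPM in sham and 12.5, 10.4, 6.56 and 8.77 CPM in Ang II, so that its estimate was above 0 (0.30, SE 0.228). Hes1, the target shared by most tissues, stood at 23.97 ± 3.87 and 28.4 ± 5.90 CPM (log2 fold change 0.26, SE 0.174), and 3 Ang II libraries exceeded the highest sham library. No member had groups without overlap, compared with 10.2% of all genes.

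At 6 months edgeR called no gene (0% of 19343; 976 genes, 5.05%, had an unadjusted p under 0.05 and DESeq2 called 64, 0.331%, with no member among them), and no member had an unadjusted p under 0.05. Estimates for the 3 receptors were -0.25 for Notch1, -0.32 for Notch2 and -0.35 for Notch3, with SE of 0.176, 0.147 and 0.294. Heyl was at -0.33 (SE 0.188). All groups overlapped, against 2.88% of genes whose groups did not.

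Averaged over the 3 times, Heyl had the lowest estimate of the members, -0.57 (SE 0.123, edgeR adjusted p = 0.193), and was not called; edgeR called 1 gene of 19218 (0.00520%), while DESeq2 called 56 (0.292%), Heyl among them. The change of the Ang II effect from 2 to 4 months was largest for Hey2, at 1.35 (SE 0.297, edgeR adjusted p = 0.198). EdgeR called no gene there (0%; 1813 genes, 10.6%, had an unadjusted p under 0.05, the 2 members Hey2 and Heyl included), and DESeq2 called 185 (1.08%), Hey2 among them. No member was called for a difference in effect between 4 and 6 months (0.0255% of genes called).

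The other genes of the pathway were taken from a list of 53, of which 46 were tested at 2 months. None was called there by edgeR (1.81% of all genes), and DESeq2 called 3 lower (4.44% of all genes): Bhlhe40, Neurl1b and Numbl, named after their values were seen. In the edgeR fit 22 had estimates above 0 and 24 below, with a median of -0.0027. Notch4, an endothelial receptor, gave -0.44 (SE 0.224), and Rbpj, the DNA-binding partner of all receptors, gave -0.17 (SE 0.129). The ligand Dll4 of arterial endothelium gave -0.20 (SE 0.232). Notch4, Rbpj and Dll4, and Aph1a and Gja5 below, were chosen for display after their values had been seen.

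At 4 months edgeR called 1 of 46 (0.707% of all genes), and DESeq2 called that gene and Aph1a, of the gamma-secretase complex, which was lower (6.17% of all genes). Mfng, a Fringe glycosyltransferase that adds sugar to Notch receptors and so changes which ligands they answer, had 44.9, 40.2, 45.0 and 48.9 CPM in sham and 57.5, 62.7, 68.6 and 66.0 CPM in Ang II. The groups did not overlap, and the log2 fold change was 0.53 (SE 0.0785, edgeR adjusted p = 0.0400). At 2 months Mfng gave 0.54 (SE 0.166, edgeR adjusted p = 0.220). The call at 4 months held without sham replicate 4 and was lost when any other library was left out (edgeR adjusted p from 0.0139 to 0.151), and it was lost with a replicate block (0.226), without the low-count filter (0.0555) and with all 24 libraries in 1 fit (0.169). Macrophages also make Mfng, and the summed level of 12 macrophage markers, none of them at 0 in any library, was 677 to 1137 CPM in Ang II and 358 to 600 CPM in sham at 4 months; its part in the result was not tested.

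Of 10 genes of arterial identity, edgeR called 1 lower at 2 months, against 1.44% of all genes. Gja5, which encodes the gap junction protein connexin 40 of arterial endothelium, had 22.7, 16.8, 22.4 and 24.7 CPM in sham and 14.5, 10.7, 10.7 and 13.1 CPM in Ang II. The groups did not overlap, and the log2 fold change was -0.80 (SE 0.150, edgeR adjusted p = 0.0353). The call was lost in 6 of 8 fits that left out 1 library, and held only without sham replicate 2 or Ang II replicate 1 (edgeR adjusted p from 0.0296 to 0.135); it was lost too with all 24 libraries in 1 fit (0.382) and without the airway-rich (0.197) or muscle-rich (0.719) libraries. In sham at 4 months Gja5 ranged from 3.81 to 21.3 CPM.

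Sham aortas were then compared between 4 and 2 months. This comparison uses the same 2-month sham libraries as the Ang II comparison at that time, so the values below are not independent of it. No member was called by edgeR (0.00619% of 16144 genes), while all 9 estimates were below 0, with a median of -0.41 against -0.023 for all genes. Hes1 was close to 0, at -0.021, and lay above 0 with DESeq2 (0.0084) and with a replicate block (0.0051). Heyl had the lowest estimate, -1.21 (SE 0.230, edgeR adjusted p = 0.0913), followed by Hey2 at -0.80 (SE 0.194, 0.119), Notch2 at -0.55 (SE 0.146, 0.136) and Notch3 at -0.54 (SE 0.117, 0.0992). Heyl, Notch2 and Notch3 had all 4-month libraries below all 2-month libraries, against 6.11% of all genes. Notch2 was at 43.9, 38.8, 45.1 and 52.0 CPM at 2 months and 33.7, 26.2, 26.5 and 38.6 CPM at 4 months. DESeq2 called 4 members lower (5.18% of genes called), Heyl, Hey2, Notch2 and Notch3, and edgeR with a replicate block called Heyl (adjusted p = 0.0476). Myh11 was 109 to 519 CPM in sham at 4 months and 721 to 1214 CPM at 2 months.

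In Ang II aortas, which share no library with the sham comparison, no member was called between 4 and 2 months (0.00611% of 16367 genes). The same Ang II libraries served in the comparisons with sham at 2 and 4 months, so the values are not independent of those. Heyl again had groups without overlap, 24.5 to 27.0 CPM at 2 months and 15.5 to 18.6 CPM at 4 months, with a log2 fold change of -0.58 (SE 0.0854, edgeR adjusted p = 0.145); 3.49% of genes were separated in this direction, and DESeq2 called Heyl (1.65% of genes called). The Hey2 estimate lay on the other side of 0, at 0.59 (SE 0.206, edgeR adjusted p = 0.400).

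Between 6 and 4 months most genes were called, 64.3% in sham (32.6% higher, 31.8% lower) and 54.9% in Ang II aortas (28.2% and 26.6%), and library kind and time cannot be told apart. The 3 receptors and Jag1 were called higher and Hes1 lower, in sham and in Ang II, so 5 of 9 members were called in each, a share near that of all genes. Groups did not overlap for 5 members in each, against 58.5% and 52.9% of genes. Notch2 (chromosome 3, 98013527 to 98150361, plus strand) had 26.2 to 38.6 CPM in sham at 4 months and 206, 247, 226 and 175 CPM at 6 months, a log2 fold change of 2.75 (SE 0.172, edgeR adjusted p = 1.01e-05). In Ang II aortas the change was 2.34 (SE 0.134, edgeR adjusted p = 1.34e-05). Notch1 changed by 1.90 and 1.62, Jag1 by 1.08 and 0.98 and Notch3 by 0.92 and 0.68 on the log2 scale in sham and Ang II (edgeR adjusted p of 0.0142 or less). Hes1 changed by -1.02 and -0.92 (edgeR adjusted p = 0.0143 and 0.00425).

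Heyl, Hey2, Hey1 and Jag2 were not called at 6 against 4 months in either treatment, with estimates from -0.57 to -0.049. In Ang II aortas Heyl was at -0.13 (SE 0.177), with Myh11 at 58.6 to 150 CPM at 4 months and 257 to 406 CPM at 6 months. The members that were higher have long genes: Notch2 spans 137 kilobases, Notch1 58.8, Notch3 46.1 and Jag1 35.2, whereas Hes1 spans 3.41 and Hey1 3.90. Across protein-coding genes the median log2 fold change in sham rose with gene span, from -0.69 under 5 kilobases to 0.52 (upper quartile 1.26) over 100 kilobases. From 20 to 50 kilobases, where Notch3, Jag1 and Jag2 fall, it was -0.043 (upper quartile 0.57). From 50 to 100 kilobases, where Notch1 falls, it was 0.31 (upper quartile 0.92). Spearman rho was 0.31 across 15032 genes, which are not independent replicates. In Ang II aortas rho was 0.33, and at 4 against 2 months it was -0.08 in sham and -0.02 in Ang II. Rn7sk, a nuclear RNA that carries no poly(A) tail, had 1.44 to 13.2 CPM before 6 months and 2746 to 9769 CPM then. The part of gene span and library kind in the receptor values was not tested.

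**Figure D4:**
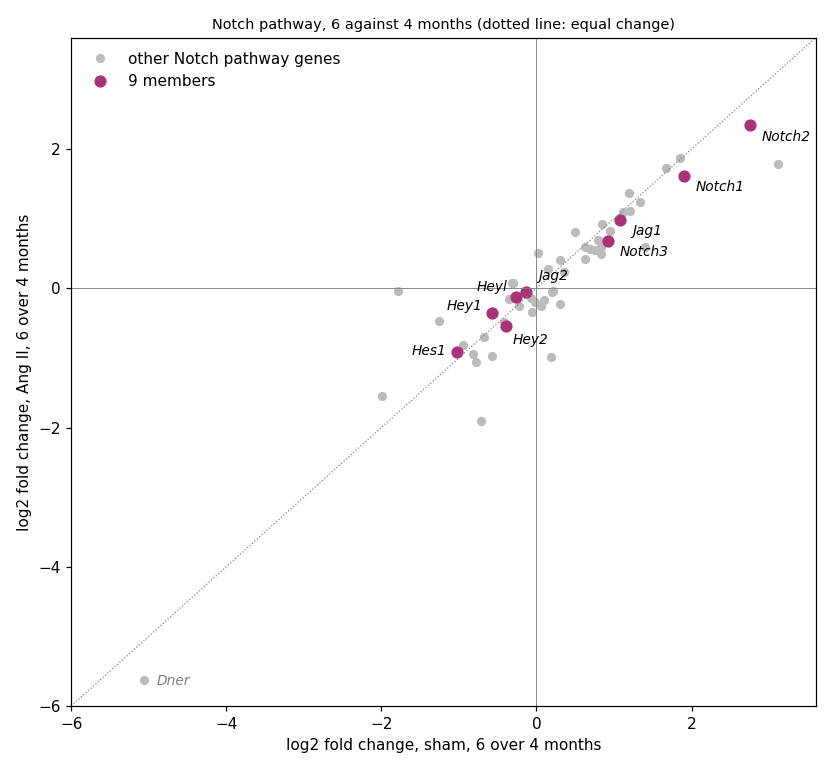
Log2 fold change of 6 over 4 months in sham (x axis) and Ang II (y axis) aortas for the 9 members (magenta, named) and the other tested Notch pathway genes (grey); the dotted line marks equal change. Notch2 (2.75 and 2.34) and Notch1 (1.90 and 1.62) lie at the upper right, Hes1 (-1.02 and -0.92) at the lower left, and Dner is far below the rest.

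Of the other 46 pathway genes, edgeR called 19 higher and 11 lower in sham, and again 19 and 11 in Ang II, beside 64.3% and 54.9% of all genes called. Among those higher were the coactivators Crebbp (1.85 in sham and 1.87 in Ang II) and Ep300 (1.34 and 1.24), the ubiquitin ligase Mib1, which acts on ligands in the signal-sending cell (1.67 and 1.73), Rbpj (1.12 and 1.09) and the corepressor Spen (1.20 and 1.37). Cir1, a corepressor partner of Rbpj, was lower (-1.99 and -1.55). Dner, a Notch-binding transmembrane protein known from neurons, had 13.8 to 33.7 CPM in sham at 4 months and 0.124 to 0.856 CPM at 6 months, a change of -5.06 (SE 0.535, edgeR adjusted p = 7.20e-05). In Ang II aortas Dner changed by -5.63 (SE 0.431, edgeR adjusted p = 2.84e-05). By gene span, Dner covers 326 kilobases, while Rbpj, at 191, and Crebbp, at 133, were higher.

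Finally, likeness between genes was described over the 16 libraries of 2 and 4 months, as Pearson correlation of log2 CPM after the mean of each time was taken out, over 11210 genes. These libraries share their treatment groups and makeup, so the values describe co-variation only. Heyl was most like Pdlim7 (0.970), Itgb5 (0.944) and Samd4 (0.937). Each of these was called lower in Ang II at 2 months (log2 fold change -1.43, -0.81 and -1.31). The treatment difference stays in these correlations, so a shared fall is part of the likeness and not a separate result. With the mean of each group taken out the values were 0.920, 0.818 and 0.791. Among the genes most like Notch3 were Spsb1 (0.873) and Pdgfrb (0.856), the latter a receptor gene of mural cells. Among those most like Jag1 were Ece1 (0.872) and Rab40c (0.849). Hes1 was most like Cd14 (0.778), Eya2 (0.767) and Gsto1 (0.763). Among the members, the closest pair was Notch3 and Heyl (0.801, and 0.742 with the mean of each group taken out). The next pair was Notch3 with Hey2 (0.687) when time means were taken out and Hey1 with Hey2 (0.686) when group means were.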

How the data were processed

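RNA of 24 aortic homogenates was sequenced. Per the labels, RNA was purified on spin columns and made into libraries with a SMARTER mRNA kit; the submitters' processing notes list STAR and featureCounts among the tools, with cutadapt, FastQC and DESeq2, on build mm10. The sources used here do not give their versions, the annotation release or the strand setting. The authors deposited whole-number read counts for 37606 genes. The authors also deposited 1 table per time with a log2 fold change of Ang II over sham, its SE and a raw and adjusted p-value for each gene, whose making is not described beyond the tool names. Counts in these tables equal those of the count table.

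Counts were tested in R 4.3.3 with edgeR 4.0.16: filterByExpr (minimum count 10, minimum total 15), TMM scaling and the quasi-likelihood F test with Benjamini-Hochberg adjustment over all genes tested, called at an adjusted p under 0.05. Treatments were compared at 1 time, and times in 1 treatment, over 8 libraries each; the average effect used 24 libraries and the changes of effect 16. SE is the size of the log2 fold change over the square root of F. Levels are CPM scaled by TMM over 24 libraries, and exon lengths come from GENCODE on the same build. The procedure was tested on simulated data. Alternatives were DESeq2 1.42.0, its size factors in edgeR, no low-count filter, no mitochondrial or ribosomal RNA genes, all 24 libraries in 1 fit, a replicate block and each library left out. Genes Gm13568, 0610009E02Rik, Gm42820 and Gm17276 overlap Notch1, Notch2 or Notch3 and stayed at or below 1.93 CPM.

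The text names the 9 members, called genes of the other pathway list (at most 10 a comparison), Acta2, Myh11, Pecam1 and Cdh5, and for Notch3, Heyl, Jag1 and Hes1 the 3 most alike genes with a mean of at least 5 CPM, 2 of which are not reported here. Members and lists were chosen with earlier results of these data known.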

Additional observations from a re-analysis of the deposited data

Results flagged for a closer look

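In 4 of 54 sets of 4 libraries (9 genes in 6 groups), 1 library lay far from the other 3 by Dixon's test at the 95% level, which chance does in about 1 set in 20. Notch3 was 52.3 CPM in sham replicate 2 at 4 months, against 43.7 to 44.8 CPM in the other 3. Hes1 was 18.2 CPM in Ang II replicate 3 at 2 months, against 21.9 to 22.6 CPM. Jag2 was 38.3 CPM in Ang II replicate 3 at 6 months, against 24.3 to 25.9 CPM. Hey1 was 3.24 CPM in Ang II replicate 4 at 6 months, against 5.51 to 5.91 CPM; that library had the largest share of mitochondrial and ribosomal RNA counts, 66.51%.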

How the results depend on the processing

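Members called at 2 months numbered 2, and 1 with a replicate block or without the airway-rich libraries, 0 without the muscle-rich ones (both chosen after seeing the data) and 0 to 2 with 1 library left out; all genes called were 297, with 727 by DESeq2, 446 with all 24 libraries in 1 fit, 119 and 1 without the airway-rich and muscle-rich libraries, and 78 to 255 with 1 library left out. At 4 months 114 genes were called, with 993 by DESeq2, 40 without the filter, 233 without mitochondrial and ribosomal RNA genes, 0 with the replicate block, 11 with all 24 libraries in 1 fit and 0 to 674 with 1 left out (674 without sham replicate 4). At 6 months DESeq2 called 64 genes against 0. For the average effect DESeq2 called 1 member and 56 genes against 0 and 1, the block 0 genes, and leaving out 1 library gave 1 to 7. For the change from 2 to 4 months DESeq2 called 1 member and 185 genes against 0 and 0, its size factors and the set without mitochondrial and ribosomal RNA genes 1 gene each, and leaving out 1 library gave 0 to 128. For the change from 4 to 6 months 5 genes were called, with 277 by DESeq2, 1 without the filter, 0 with the block and 0 to 16 with 1 left out. For sham at 4 against 2 months DESeq2 called 4 members and 830 genes against 0 and 1, the block 1 and 140, no filter 4 genes, and leaving out 1 library gave 0 to 2 members and 0 to 641 genes. For Ang II at 4 against 2 months DESeq2 called 1 member and 270 genes against 0 and 1, its size factors 2 genes, no filter 3, no mitochondrial and ribosomal RNA genes 2, and leaving out 1 library 0 to 1. At 6 against 4 months 5 to 6 members were called with 1 library left out.

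Of 495 member values under settings other than leaving out 1 library, 11 reversed, 4 lost and 8 gained a call. Those reversed were Hey1 at 2 months (-0.0047 with DESeq2 size factors, -0.0050 with DESeq2, -0.014 without mitochondrial and ribosomal RNA genes, -0.019 with all libraries, -0.041 without the airway-rich ones), Hes1 in sham at 4 against 2 months (0.0084, 0.0084 and 0.0025 for the same 3 settings, 0.0051 with the block), Notch1 (-0.070, without airway-rich libraries) and Jag1 (0.24, without muscle-rich ones) at 2 months. Of 1008 values with 1 library left out, 54 reversed, in 20 member values, none of them called. Their ranges at 2 months were -0.053 to 0.054 for Hey1 and -0.25 to 0.071 for Hes1; at 4 months -0.063 to 0.089 for Notch3, -0.15 to 0.10 for Jag1 and -9.1e-04 to 0.33 for Jag2; at 6 months -0.067 to 0.45 for Jag2 and -0.065 to 0.16 for Hey2; on average -0.037 to 0.057 for Notch1 and -0.13 to 0.012 for Jag2. For the change from 2 to 4 months they were -0.24 to 0.034 for Notch1 and -0.038 to 0.23 for Jag1, and from 4 to 6 months -0.15 to 0.37 for Jag2, -0.014 to 0.20 for Heyl, -0.031 to 0.32 for Hey1 and -0.16 to 0.32 for Hes1. Over time they were -0.093 to 0.19 for Hes1 in sham and -0.029 to 0.27 for Hey1 in Ang II (4 against 2 months), -0.44 to 0.071 for Jag2 in sham, and -0.21 to 0.053 for Jag2 and -0.23 to 0.026 for Heyl in Ang II (6 against 4 months). The cause of these changes was not tested. Deviations of same-numbered sham and Ang II libraries correlated at -0.294 to 0.485. These values do not show whether libraries with the same number share a batch or a pairing. With the replicate block Heyl at 2 months was -0.92 (edgeR adjusted p = 0.0830) and Hey2 -1.04 (0.0499).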
